A study of Mus musculus with 6 samples.

Results

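Complement is a set of plasma and membrane proteins that mark cells and debris for clearance, and it is studied here at the RNA level in fibroadipogenic progenitors (FAPs) from mouse skeletal muscle. The members are 9 complement components and regulators, chosen by symbol with earlier results of these data known: C3, C4b, C1ra, C2, Cfb, Cfd, Masp1, Serping1 and Cd59a. The expression table listed 16894 genes and 8 of the 9 symbols. Cfd, the protease adipsin that cleaves factor B, was not listed under its symbol and was not analysed here.

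FAPs are mesenchymal cells of muscle that give rise to fibroblasts and adipocytes. They were taken from the hindlimb muscle of C57BL/6 mice of both sexes aged 3 to 6 months by magnetic sorting for cells without CD45, CD31 and integrin alpha-7 and with SCA-1, and both groups were grown in culture. The 3 senescent libraries came from FAPs exposed to 20 μM etoposide, a topoisomerase poison that breaks DNA, for 48 h and then held in normal medium for 5 days, and the 3 control libraries came from non-senescent FAPs. The vehicle and the days in culture of the controls are not given in the sources used here, so etoposide and any difference in culture time cannot be told apart. The model is 1 drug in cultured cells of younger adult mice, and the sources used here do not say whether the 3 libraries of a group came from separate animals, so the p-values measure the spread between these libraries, which may be technical.

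Complement is switched on along 3 routes. In the classical pathway, antibody-bound C1q activates the proteases C1r and C1s, which cut C4 and C2; in the lectin pathway, sugar-binding proteins carry proteases of the MASP family; in the alternative pathway, C3 turns over by itself and is amplified by factor B and factor D. All routes meet at C3, whose fragments coat targets and attract immune cells. Host cells are kept from attack by soluble inhibitors such as C1 inhibitor and by membrane proteins such as CD55 and CD59. The liver makes most plasma complement, and stromal cells also transcribe several of these genes.

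Values are CPM, read counts relative to the scaled size of the library, and 1 read corresponded to about 0.02 CPM. Reads on genes numbered 41412179 to 59912520 per library, and the 8 members had from 216 to 23886 reads in a library. Cdkn1a, the cell cycle inhibitor p21, was 259, 274 and 336 CPM in control replicates 1 to 3 and 1037, 1017 and 1060 CPM in senescent replicates 1 to 3, and the proliferation marker Mki67 was 101 to 247 CPM in controls and 9.27 to 19.0 CPM in senescent libraries. Cdkn2a, whose products include p16, had a log2 fold change of 0.13 (limma, Benjamini-Hochberg adjusted p = 0.765). The study reported higher p16 by qPCR in etoposide-treated FAPs than in controls, which is a different measure from these gene-level reads. All 8 FAP markers were listed, with Pdgfra at 126 to 254 CPM over the 6 libraries. Of the 8, 6 rose (Dpt, Cd34, Dcn, Lum, Ly6a and Pi16) and Col1a1 fell, and their summed level, mostly Col1a1 in controls, was 10430 to 21889 CPM in controls and 3624 to 5368 CPM in senescent libraries. Of 13 leukocyte and macrophage markers, 7 were listed, with a summed level of 11.7 to 14.2 CPM in controls and 26.6 to 32.7 CPM in senescent libraries. Ptprc (CD45), Tyrobp, Adgre1 and the 3 C1q chains were not listed, 3 of the 4 leukocyte markers tested rose (Cd53, Lyz2 and Cd68), and the part of these cells in the results was not tested. Of 6 adipocyte markers, Fabp4 alone was listed, and it rose (2.73 to 3.69 CPM in controls and 5.06 to 5.81 CPM in senescent libraries). Of 7 myogenic markers, 2 were listed and Itga7 rose, with a sum of 14.3 to 19.3 CPM in controls and 23.4 to 30.2 CPM in senescent libraries. Of 6 endothelial markers, 4 were listed, Vwf and Pecam1 rose and Kdr fell, with a sum of 5.16 to 7.21 CPM in controls and 5.48 to 7.39 CPM in senescent libraries. The part of these markers in the results was not tested either. In bulk libraries, fewer cells of a type and less RNA per cell cannot be told apart.

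C3 and Masp1 rose in senescent FAPs, C3 by 3.18-fold and Masp1 by 2.23-fold, and no member fell. The inhibitor gene Serping1 was above every control in every senescent library but missed the threshold in the main limma fit. C4b, C1ra, C2, Cfb and Cd59a had fold changes of 1.14 to 1.55 with overlapping groups. Differences were tested with limma on log2(CPM + 0.5) over 14776 genes, and a call is a Benjamini-Hochberg adjusted p under 0.05, so fold changes are on that scale. Of the 8 members, 2 were called higher, beside 21.8% of all genes tested, and 0 were called lower, beside 24.3% of all genes. Counting instead the genes past the study's threshold (log2 fold change larger than 1 in size at an unadjusted p below 0.01) gave the same 2 members higher and 0 lower, beside 6.93% and 3.90% of all genes. For the lower direction, limma at an unadjusted p under 0.05, edgeR's quasi-likelihood test and DESeq2 each also gave 0 members. All 8 log2 fold changes were above 0, as were those of 6988 of the 14776 genes. Their median was 0.58, beside −0.03 over all genes. C4b and Cd59a changed sign in some fits that left out 1 library. The members were chosen with earlier results of these data known, so the shared sign is not a test of the set. The groups did not overlap for 3 of the 8 members, beside 57.4% of all genes, so separation of the groups was no more frequent among the members than in the rest of the table.

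**Figure D1:**
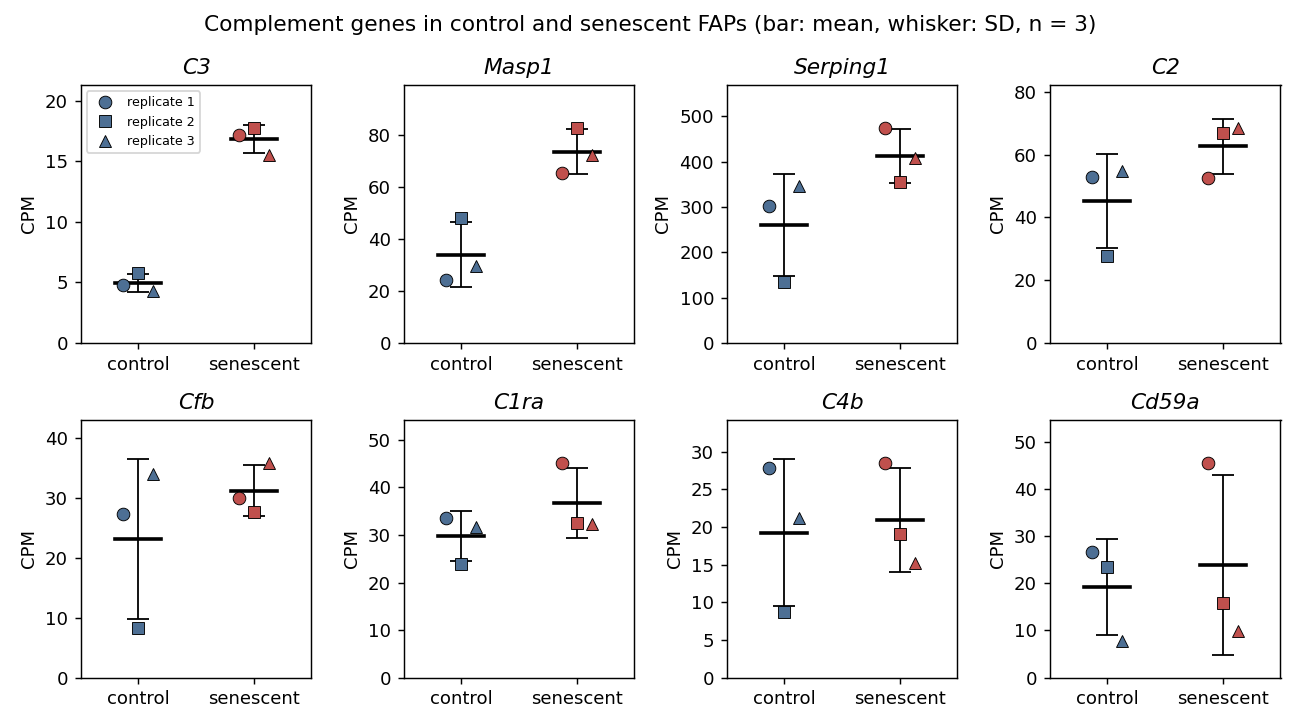
Level of the 8 complement genes in each library, in CPM on a linear axis from 0, with 1 panel per gene (circle, square and triangle: replicates 1, 2 and 3; blue: control FAPs; red: senescent FAPs; bar: mean; whisker: SD, n = 3). The groups are apart for C3, Masp1 and Serping1, and control replicate 2 is the lowest control for Serping1, C2, Cfb, C1ra and C4b.

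C3 is the central component, cut by the convertases of every route (chr17:57203970-57228136 on the minus strand of GRCm38, the build also called mm10). Its level was 4.82, 5.78 and 4.29 CPM in control replicates 1, 2 and 3 and 17.2, 17.8 and 15.5 CPM in senescent replicates 1, 2 and 3. The 3 libraries of each group lay close together and the groups were far apart. The means were 4.96 ± 0.756 CPM in controls and 16.8 ± 1.15 CPM in senescent FAPs (SD, n = 3 each), a log2 fold change of 1.67 ± 0.14 (SE, 95% interval 1.35 to 1.99, limma adjusted p = 0.000237). Within pairs of libraries with the same replicate number, C3 was higher by 1.73, 1.54 and 1.74 on the log2 scale. No stretch of 50 bases in its transcripts occurred in another gene.

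Cfb encodes factor B, which carries the protease of the alternative C3 convertase (chr17:34856374-34862518, minus strand). It measured 27.3, 8.25 and 34.0 CPM in control replicates 1 to 3 and 30.0, 27.7 and 35.9 CPM in senescent replicates 1 to 3. Control replicate 2 stood far below the other libraries, while control replicate 1 was just under the senescent range and control replicate 3 was inside it. The log2 fold change was 0.63 ± 0.46 (SE, 95% interval −0.43 to 1.70, limma adjusted p = 0.288). Without control replicate 2 it was 0.03.

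C2 lies next to Cfb, 85 bases away on the same strand (chr17:34862604-34898265, minus strand), and encodes the protease of the classical and lectin C3 convertase. Its values were 52.9, 27.8 and 54.8 CPM in control replicates 1 to 3 and 52.7, 66.9 and 68.5 CPM in senescent replicates 1 to 3. Senescent replicate 1 was below 2 of the controls, and control replicate 2 was again the lowest. The log2 fold change was 0.52 ± 0.25 (SE, 95% interval −0.06 to 1.11, limma adjusted p = 0.125), and it was 0.21 without control replicate 2.

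The annotation places a further gene, Gm20547, over both C2 and Cfb on the same strand (chr17:34856412-34882042), and it was looked up after this overlap was seen. Its exons cover 79.5% of the exon bases of Cfb and 42.8% of those of C2, and 73.0% and 38.7% of the 50-base stretches in the Cfb and C2 transcripts also occur in Gm20547. Of the 3902 exon bases of Gm20547, 2246 lie in exons of Cfb and 1656 in exons of C2, so it has no exon base of its own. In each of the 6 libraries Gm20547 was 0.748 to 0.796 of the sum of C2 and Cfb. The log2 fold change of Gm20547 was 0.52 (limma adjusted p = 0.226). Because the exons are the same, neither value is a measurement separate from C2 and Cfb. How reads in the shared exons were assigned is not given in the sources used here, so the levels of C2 and Cfb are uncertain, and the part of this overlap in their fold changes was not tested.

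**Figure D2:**
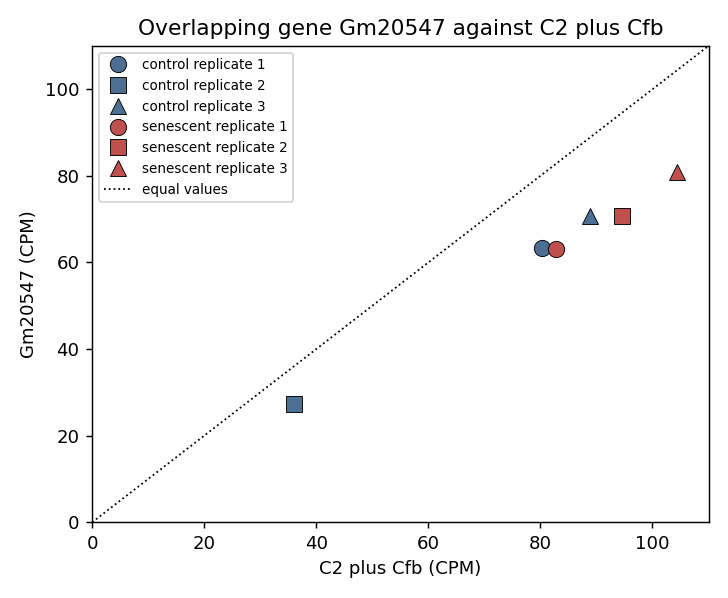
Level of Gm20547 (vertical axis, CPM) against the sum of C2 and Cfb (horizontal axis, CPM) in each of the 6 libraries, with a dotted line where both are equal (blue: control; red: senescent). All 6 points lie below the line at ratios of 0.748 to 0.796, and control replicate 2 has the lowest value on both axes. Every exon base of Gm20547 lies in an exon of C2 or Cfb, so the axes are not separate measurements.

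Masp1 encodes MASP-1, the protease that starts the lectin pathway, and other splice forms (chr16:23449417-23520815, minus strand). The gene-level values do not separate these forms. Masp1 was 24.3, 47.9 and 29.4 CPM in control replicates 1 to 3 and 65.4, 82.6 and 72.0 CPM in senescent replicates 1 to 3. Every senescent library exceeded every control, and replicate 2 was the highest in both groups. Means were 33.9 ± 12.4 CPM in controls and 73.4 ± 8.64 CPM in senescent FAPs (SD, n = 3 each), with a log2 fold change of 1.16 ± 0.23 (SE, 95% interval 0.62 to 1.69, limma adjusted p = 0.00548). Between same-numbered libraries the rise was 1.41, 0.78 and 1.28. Without control replicate 1 the log2 fold change was 0.95, under the study's threshold of 1, and the adjusted p was under 0.05 in every fit that left out 1 library. Its near relative Masp2, the MASP that cuts C4 and C2, was listed but not tested, at 0.108 to 0.179 CPM in controls (6 to 8 reads) and 0.450 to 0.636 CPM in senescent libraries (20 to 38 reads).

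In the classical pathway, C1ra encodes the C1r protease (chr6:124512405-124523443, plus strand). It measured 33.7, 23.8 and 31.8 CPM in control replicates 1 to 3 and 45.2, 32.5 and 32.4 CPM in senescent replicates 1 to 3. The groups overlapped, since control replicate 1 was above senescent replicates 2 and 3. The log2 fold change was 0.30 ± 0.17 (SE, 95% interval −0.11 to 0.70, limma adjusted p = 0.197). Of the 50-base stretches in its transcripts, 48.0% also occur in the paralog C1rb, which was listed at 0.932 to 1.60 CPM in controls and 0.920 to 2.22 CPM in senescent libraries, so how reads were split between the 2 genes is uncertain.

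C4b is the mouse gene for C4, the protein cut by C1s and by the product of Masp2 (chr17:34728380-34743882, minus strand). Its levels were 27.9, 8.65 and 21.2 CPM in control replicates 1 to 3 and 28.5, 19.0 and 15.2 CPM in senescent replicates 1 to 3. The senescent values lay almost wholly within the control range. The log2 fold change was 0.22 ± 0.41 (SE, 95% interval −0.74 to 1.17, limma adjusted p = 0.688), it was −0.26 without control replicate 2, and it was −0.02 without senescent replicate 1. The paralog C4a (sex-limited protein) shares 34.6% of the 50-base stretches of C4b and was listed at 0.723 to 1.74 CPM in controls and 1.46 to 2.08 CPM in senescent libraries.

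Serping1 encodes C1 inhibitor, which blocks C1r, C1s and the MASPs (chr2:84765387-84775444, minus strand). It was the most abundant member, at 301, 133 and 347 CPM in control replicates 1 to 3 and 474, 354 and 409 CPM in senescent replicates 1 to 3. Every senescent library was above every control, with senescent replicate 2 just over control replicate 3 and control replicate 2 far below the rest. The means were 260.4 ± 112 CPM in controls and 412 ± 60.1 CPM in senescent FAPs (SD, n = 3 each), and the log2 fold change was 0.77 ± 0.33 (SE, 95% interval 0.00 to 1.53, limma adjusted p = 0.0916). With the replicate number as a block the same log2 fold change had an adjusted p of 0.0163 in limma, and over all the alternatives tried its adjusted p ranged from 0.0163 to 0.214. Of 16 alternatives, 12 did not call Serping1 and 4 did. Those 4 were the block and, without pairing, DESeq2, library totals only and the fit without control replicate 3. Without control replicate 2 the log2 fold change was 0.34, and without control replicate 3 it was 1.03. No 50-base stretch of its transcripts occurs in another gene.

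Cd59a encodes CD59, a membrane protein that stops assembly of the membrane attack complex (chr2:104095801-104115354, plus strand). It was 26.5, 23.5 and 7.66 CPM in control replicates 1 to 3 and 45.6, 15.8 and 9.99 CPM in senescent replicates 1 to 3. The spread within each group was wider than the difference between them, and replicate 3 was the lowest library in both. The log2 fold change was 0.19 ± 0.61 (SE, 95% interval −1.23 to 1.61, limma adjusted p = 0.818). Leaving out senescent replicate 1 turned it to −0.41, and leaving out control replicate 3 turned it to −0.36. Cd59b, the neighbouring copy of the gene, shares 3.87% of the 50-base stretches of Cd59a and was 1.58, 1.94 and 1.76 CPM in control replicates 1 to 3 and 3.24, 2.93 and 3.56 CPM in senescent replicates 1 to 3. Cd59b rose, with a log2 fold change of 0.73 ± 0.15 (SE, limma adjusted p = 0.00616).

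The replicates of a group did not deviate in the same way for every member. Control replicate 2 was the lowest control for 5 of the 8 members (C4b, C1ra, Serping1, Cfb and C2) and the highest for C3 and Masp1, while over all genes tested it was the lowest control for 38.9% and the highest for 38.9%. Senescent replicate 1 was the highest senescent library for C4b, C1ra, Serping1 and Cd59a and the lowest for C2 and Masp1, beside 38.3% and 37.3% of all genes. Summed over the 8 members, the level was 499, 279 and 530 CPM in control replicates 1 to 3 and 759, 617 and 658 CPM in senescent replicates 1 to 3, with Serping1 the largest term in each library. Within same-numbered pairs, 5 of the 8 members (C3, Masp1, Serping1, Cfb and C1ra) were higher in the senescent library of all 3 pairs, beside 33.8% of all genes tested, and in pair 3 the log2 ratio was 0.03 for C1ra and 0.08 for Cfb.

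**Figure D3:**
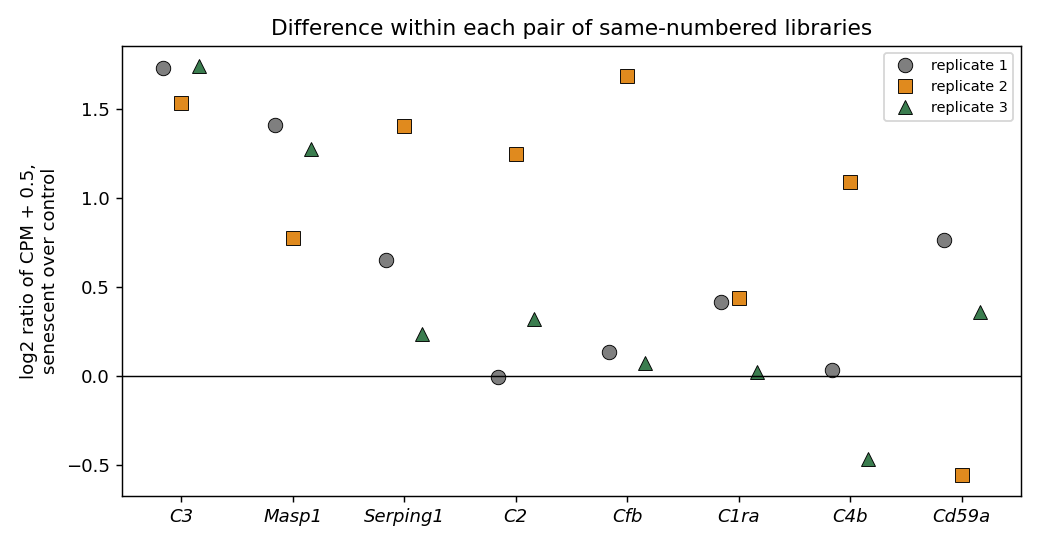
Log2 ratio of CPM + 0.5, senescent over control, within each pair of libraries with the same replicate number, for the 8 complement genes (circle, square and triangle: replicates 1, 2 and 3; line at 0: equal levels). C3 lies between 1.54 and 1.74 in all 3 pairs, whereas Cfb is 1.69 in pair 2 and 0.14 and 0.08 in pairs 1 and 3.

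Levels of different genes can be set side by side per length, in CPM per kilobase of annotated exon. On that scale Serping1 was highest in both groups, at 112 ± 48.3 in controls and 177 ± 25.9 in senescent FAPs (SD, n = 3 each). In senescent FAPs the next were C2 (16.2 ± 2.25), Cd59a (13.1 ± 10.5), C1ra (12.3 ± 2.47) and Cfb (11.0 ± 1.49), neighbours whose ranges over the libraries overlapped. Masp1 followed at 7.46 ± 0.879, and C4b (3.67 ± 1.21) and C3 (3.27 ± 0.224) were last. In controls C3 ran from 0.834 to 1.12 CPM per kilobase, below all values of C4b (1.52 to 4.89), and in senescent FAPs it ran from 3.02 to 3.45, inside the C4b range of 2.67 to 5.01. Masp1 lay inside the C4b range in controls (2.47 to 4.87) and above it in senescent FAPs (6.66 to 8.40). The length counts every annotated exon of a gene, which lowers this value most for genes with many splice forms, such as Masp1. Of the 50-base stretches in the transcripts, 73.0% for Cfb, 50.8% for C1ra, 38.7% for C2 and 34.6% for C4b occur in other genes. How such reads were assigned is not given in the sources used here. The levels of these genes, their order and the comparisons with C4b are therefore uncertain.

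The 250 bases before the transcription start are shown for C3, which rose, and Cd59a, which was not called, the measured members with an entry in RefSeq's promoter table (GRCm38.p6) whose start matches the gene start given above. Capitals mark matches, on either strand, to 3 letter patterns for factors of inflammatory signalling: GAS (TTCNNNGAA, bound by STAT factors), an interferon-response pattern (GAAANNGAA, bound by IRF factors) and C/EBP (TTGCNNAA).
C3 (chr17:57228137-57228386, minus strand): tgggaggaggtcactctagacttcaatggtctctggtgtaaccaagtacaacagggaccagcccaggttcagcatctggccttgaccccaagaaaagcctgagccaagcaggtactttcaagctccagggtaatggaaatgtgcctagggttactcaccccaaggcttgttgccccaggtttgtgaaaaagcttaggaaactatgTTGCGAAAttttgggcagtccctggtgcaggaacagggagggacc
Cd59a (chr2:104095551-104095800, plus strand): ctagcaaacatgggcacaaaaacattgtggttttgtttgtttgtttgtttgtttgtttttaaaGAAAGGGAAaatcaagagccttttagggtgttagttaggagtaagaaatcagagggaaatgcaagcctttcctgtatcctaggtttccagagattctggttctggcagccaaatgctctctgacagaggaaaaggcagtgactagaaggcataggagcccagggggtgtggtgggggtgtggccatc
The C3 window held 1 C/EBP match, 45 to 38 bases before the start, and the Cd59a window held 1 interferon-response match, 187 to 179 bases before the start. Over the same window, 9.56% of 32851 promoters held the C/EBP pattern, 7.13% the interferon-response pattern and 7.02% GAS. These matches describe letters in the windows and say nothing of binding.

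Beyond the members, 51 other complement genes were looked for, of which 33 were listed and 20 were tested. Of the 20, 11 rose and 1 fell, beside 21.8% and 24.3% of all genes, with a median log2 fold change of 0.60. Inhibitors that rose included decay-accelerating factor and clusterin. 5 of the 20 (Hc, Clu, Susd4, Csmd1 and Itgam) had fewer than 3 controls over the filter of 0.5 CPM and so entered largely through their senescent values. Susd4, Csmd1 and Itgam had 0 controls over it and entered only through their senescent values. Of the 15 with all 3 controls over the filter, 7 rose. The 21.8% covers all genes tested, and the share among genes with all 3 controls over the filter was not counted. The count of higher genes was 22 with no filter, where all 33 listed genes were tested, and 6 with a filter at 2 CPM. At 2 CPM, Susd4, C8g, Itgam, Csmd1 and Itgb2 were not tested, and no other call was lost. It was 6 without senescent replicate 2 and 6 without senescent replicate 3. In both of those fits Susd4, Csmd1 and Itgam were not tested, and C8g and C1rl were tested and lost their calls. Calls over all genes moved too. In the main fit 3218 of 14776 genes were higher, with no filter 3836 of 16894, and at 2 CPM 2421 of 12304. Without senescent replicate 2 it was 1706 of 14227 genes, and without senescent replicate 3 it was 1826 of 14251.

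**Figure D4:**
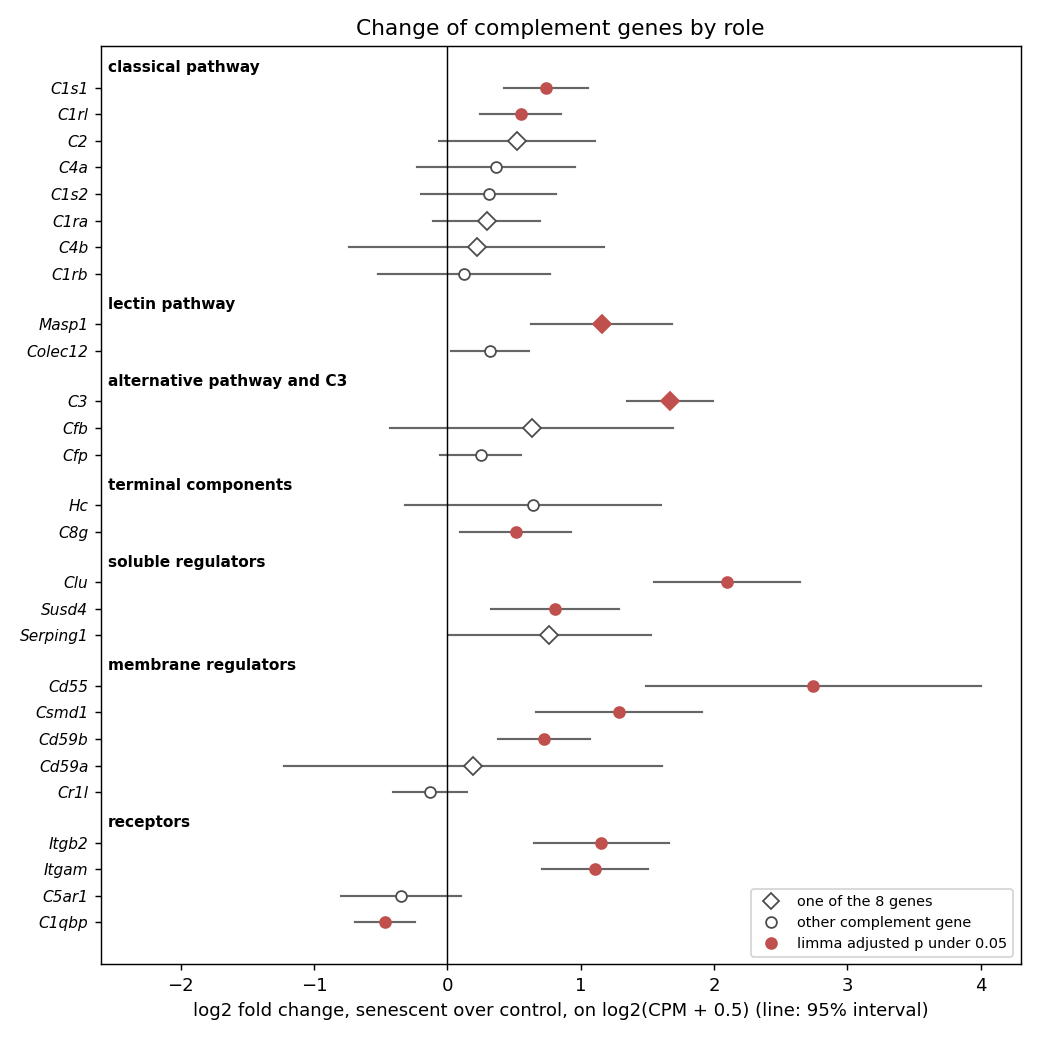
Log2 fold change, senescent over control, with its 95% interval for the 8 members (diamonds) and 19 of the 20 other complement genes tested (circles), grouped by role (red fill: limma adjusted p under 0.05; line at 0: equal levels). Soluble and membrane regulators include Cd55 at 2.75 and Clu at 2.10, while C1qbp, at −0.47, is the one gene called lower. Susd4, Csmd1 and Itgam entered the test only through their senescent values.

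Other inhibitors act beside Serping1 and Cd59a. Cd55, the decay-accelerating factor of the cell surface, was 2.66, 11.5 and 9.21 CPM in control replicates 1 to 3 and 26.0, 58.8 and 69.9 CPM in senescent replicates 1 to 3. It rose by 2.75 ± 0.54 (log2, SE, limma adjusted p = 0.00537), with replicate 1 the lowest library in both groups. The log2 fold change was 2.15 without control replicate 1 and 3.17 without senescent replicate 1. Clusterin (Clu), which hinders membrane attack, was 0.245 to 0.894 CPM in controls and 3.55 to 3.89 CPM in senescent libraries and rose by 2.10 on the log2 scale (limma adjusted p = 0.000594). At these low levels the fold depends on the pseudocount and tool, from 1.65 with a pseudocount of 1 to 2.87 in DESeq2 on the log2 scale. Among the soluble and membrane regulators, Cd55, Cd59b, Clu, Susd4 and Csmd1 were called higher. Susd4 (11 to 21 reads in controls, 29 to 72 in senescent libraries) and Csmd1 (6 to 27 and 38 to 109) entered the test only through senescent values. Clu had 1 control over the filter. Cr1l, the rodent regulator Crry, had a log2 fold change of −0.13 (limma adjusted p = 0.397), which was 0.080 with library totals only. The call of Susd4 was lost without control replicate 3 (limma adjusted p = 0.0508, the highest of its alternatives, which began at 0.00512).

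In the classical pathway, 2 of the 5 other genes tested rose. With the members C1ra, C2 and C4b it was 2 of 8 genes, beside 21.8% of all genes. C1s1, the C1s protease that works with C1r, was 118, 96.4 and 124 CPM in control replicates 1 to 3 and 223, 167 and 179 CPM in senescent replicates 1 to 3. The groups were apart, and the log2 fold change was 0.74 ± 0.14 (SE, limma adjusted p = 0.00395). C1rl, a C1r-like protease beside C1ra, rose by 0.55 on the log2 scale (limma adjusted p = 0.0117; 0.0576 without senescent replicate 2 and 0.0529 without senescent replicate 3, in a range of 0.000430 to 0.0576 over all alternatives). C4a (0.36), C1s2 (0.31) and C1rb (0.12) were not called, and C1qa, C1qb and C1qc were not listed.

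In the lectin and alternative pathways, neither of the other genes tested was called. Colec12, a collectin that is a scavenger receptor, had a log2 fold change of 0.32 with groups apart (limma adjusted p = 0.0695, 0.0438 with the replicate block, and 0.0126 to 0.206 over all alternatives). Cfp, properdin, which stabilizes the alternative convertase, had a log2 fold change of 0.25 (limma adjusted p = 0.152). Among terminal components, C8g, the small chain of C8, had 23 to 66 reads per library and a log2 fold change of 0.51 (limma adjusted p = 0.0494, and 0.0226 to 0.171 over all alternatives, 8 of which lost the call). Hc, which encodes C5, had a log2 fold change of 0.64 with overlapping groups (limma adjusted p = 0.239, 0.0289 with the replicate block, and 0.0289 to 0.620 over all alternatives).

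Among receptors, Itgb2 and Itgam, the chains of complement receptor 3 of myeloid cells, were called higher at low levels. Itgb2 was 0.503 to 1.03 CPM in controls and 1.99 to 3.01 CPM in senescent libraries (limma adjusted p = 0.00458). Itgam had 3, 0 and 0 reads in control replicates 1 to 3 and 26, 50 and 24 reads in senescent replicates 1 to 3 (limma adjusted p = 0.00202). It entered the test only through its senescent values. Its direction was thus set by being tested, and its call is not a test of a rise. Of 13 leukocyte and macrophage markers, 7 were listed and 4 were tested, and 3 of those tested rose (Cd53, Lyz2 and Cd68). The part of such cells in the values of Itgb2 and Itgam was not tested. C1qbp, a mitochondrial protein that binds C1q, fell by 0.47 on the log2 scale (65.0, 76.8 and 60.6 CPM against 47.4, 49.1 and 48.9 CPM in replicates 1 to 3, limma adjusted p = 0.00678; 0.0727 with library totals only, in a range of 0.00151 to 0.0727 over all alternatives). C5ar1, the receptor of C5a, had a log2 fold change of −0.35 (limma adjusted p = 0.179).

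The other 13 listed complement genes were too low to test, at no more than 0.456 CPM in a control and 0.903 CPM in a senescent library. They include C3ar1, the C3a receptor, with 1, 13 and 0 reads in control replicates 1 to 3 and 23, 21 and 30 reads in senescent replicates 1 to 3. In 11 of the 13 every senescent library was above every control, which was so for 38.4% of the 2118 genes of the table that were not tested. Every gene in the table had at least 8 reads in 3 libraries. Genes such as C7 (0 to 6 reads in controls) and Fcna (0 to 2) were thus listed only through their senescent reads. For such genes the direction was set by being listed, so the count of 11 is not a test of a rise.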

How the data were processed

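Bulk RNA-seq libraries, 3 of control and 3 of senescent FAPs, made with a stranded mRNA kit, were grouped by their labels. The authors deposited 1 table of CPM signal with 1 value per gene and library; the submitters' processing notes name edgeR 3.10, R 3.6.0 and mm10. The aligner, counter, annotation and use of strand are not given in the sources used here. CPM was assumed in planning. The columns summed to 919818 to 1090570, as CPM of an effective library size does, and the planned limma test was kept. Whole reads were recovered for 100% of values (within 0.01 read). 1 line naming no gene, with 0.00409% to 0.00699% of the reads of a library, was dropped. Replicates differed by a mean chi-square per gene of 15.1 to 154.5, so none repeats another library.

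The test was limma 3.58.1, run in R 4.3.3 and two-sided, with log2(CPM + 0.5) as input and a variance trend. It covered the 14776 genes that reached 0.5 CPM in 3 or more libraries, with Benjamini-Hochberg adjustment over all of them. The code was tested on simulated data. Alternatives were pseudocounts of 0.1 and 1, no filter or 2 CPM, median-of-ratios or library totals only, edgeR 4.0.16 and DESeq2 1.42.0 on recovered reads, no trend, a replicate block and leaving out each library. Libraries with the same replicate number deviated together (r = 0.537, 0.308 and 0.207 over 14776 genes). Those with unlike numbers had r from −0.357 to 0.153, the highest for control replicate 2 with senescent replicate 3. The numbers were taken to pair the libraries. The pairing, and the replicate block that uses it, come from this check of the same data and not from the labels.

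Coordinates and exons come from GENCODE on GRCm38, and promoters from RefSeq (GRCm38.p6), which matched 4 of the 9 members; the C1ra entry starts elsewhere than the annotated gene and was not used. Transcripts were compared in stretches of 50 bases. Named genes were all members, the 4 other genes with the smallest p in each role, paralogs of members, the C1q chains, the receptors of C3a and C5a, and Cdkn1a, Cdkn2a and Mki67. The counts also include 1 gene whose own values are not given here. Gm20547 and the marker genes given with values were named after their values were seen. The members and lists were chosen with earlier results of these data known.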

Additional observations from a re-analysis of the deposited data

How the results depend on the processing

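Of 478 values of the 31 named genes under the alternatives, 445 kept their direction and their side of the threshold, 12 lost a call, 14 gained one and 7 changed sign. C3 and Masp1 were called higher in each alternative tried. Library totals only, which moved the median of all genes from −0.03 to 0.17, gave 5 members higher (adding Serping1, C1ra and C2), 0 other complement genes lower and a log2 fold change of 0.080 for Cr1l. Relative to those medians C1ra was 0.34 against 0.33 and C2 was 0.57 against 0.56. The replicate block gave 3 members higher, adding Serping1, called Colec12 and Hc, and changed no other call of a named gene. DESeq2 also called Serping1. Other complement genes higher numbered 22 with no filter and 6 with a filter at 2 CPM, beside 3836 of 16894 and 2421 of 12304 of all genes. The genes missing at 2 CPM were not tested there. Leaving out 1 library gave 1 to 2 members higher at the study's threshold and 6 to 12 other complement genes higher. Over all genes, 1706 to 3398 were higher in these fits. Susd4, Csmd1 and Itgam were not tested in the fits that left out a senescent library. Other complement genes lower numbered 1 to 2 (2 without control replicate 2, adding Cr1l). Log2 fold changes ran from −0.26 to 0.56 for C4b and −0.41 to 0.65 for Cd59a. They ran from −0.16 to 0.31 for C1rb and −0.13 to 0.46 for Cdkn2a. The cause of these changes was not tested. With 3 libraries a group, the 95% intervals of C4b, Cfb, Cd59a, C1ra and C2 ran from a fall to a rise, although each had at least 427 reads in every library.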
